A study of Mus musculus with 24 samples.

Results

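A set of 10 long non-coding RNA genes that carry small nucleolar RNAs (snoRNAs) in their introns were followed in mouse CGR8 embryonic stem cells (ESCs) depleted of RSL24D1, a factor of large ribosomal subunit assembly. They are Gas5, Snhg1, Snhg3, Snhg4, Snhg5, Snhg6, Snhg8, Snhg12, Snhg15 and Snhg17, chosen by symbol from the deposited expression table. They are 10 of 54242 genes in that table and 10 of the 16447 genes kept by a filter on low values, which asked for log2(TPM + 1) to average 0.5 or more across libraries. TPM is the level of a transcript as its share of a library, corrected for transcript length, so levels of different genes can be compared.

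The data are 24 RNA-seq libraries, 3 in each of 8 groups. ESCs were transfected with control siRNA (si-CTL) or with siRNA against Rsl24d1 (si-Rsl24d1). They were collected 72 h later as ESCs in serum and LIF (day 0), or after 4 days of 10 nM retinoic acid (RA, day 4). Each of these 4 groups was made without rescue and with rescue, in which doxycycline induced an ectopic Rsl24d1 open reading frame in the puromycin-selected CGR8-RESCUE line. All groups, controls included, are of the CGR8 line. By the labels, cells that got no doxycycline held an empty vector. The labels and the methods of the study also differ on the library kit (poly-A or total RNA), the medium, the time after transfection and the presence of LIF during RA. The methods name an index of protein-coding genes, whereas the deposited table lists non-coding genes, so the transcripts behind each host's value are not given in the sources used here. In its figure of gene signatures at day 0 and day 4, the study calls the 3 dots of a condition biological replicates. The sources used here do not say how the cultures were separated, so p-values measure the spread between these libraries.

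snoRNAs guide the chemical modification and, in a few cases, the cleavage of ribosomal RNA, and in mammals most are cut out of the introns of host genes. The spliced exons of many non-coding hosts leave the nucleus and are read by ribosomes through short open reading frames. The ribosome then stops ahead of exon junctions, which marks the RNA for nonsense-mediated decay (NMD), a decay route that needs translation, so these RNAs are known to accumulate when translation is blocked. Many of the hosts also start with a 5′ terminal oligopyrimidine (TOP) tract, a C followed by pyrimidines, as do the mRNAs of ribosomal proteins. These properties give the genes their grouping here. Translation itself was not measured in these libraries.

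The starts of the hosts are shown because the TOP tract is a sequence property of the class. RefSeq starts on GRCm38.p6 were held for 8 of the 10 genes, all but Snhg4 and Snhg6. Each line gives 50 bases on the gene's strand, 25 before the start and 25 from it, and capitals mark the longest run of a C followed by at least 4 C or T whose first base lay within 10 bases of the start. For Gas5 the downstream of its 2 starts is printed, and for Snhg17 the upstream of its 2. The start of Gas5 that is not printed held no such run, and neither did that of Snhg17.
Gas5: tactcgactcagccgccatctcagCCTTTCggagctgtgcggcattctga
Snhg1: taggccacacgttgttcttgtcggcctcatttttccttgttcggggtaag
Snhg3: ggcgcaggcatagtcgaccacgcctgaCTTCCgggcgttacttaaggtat
Snhg5: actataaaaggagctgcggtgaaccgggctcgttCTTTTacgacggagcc
Snhg8: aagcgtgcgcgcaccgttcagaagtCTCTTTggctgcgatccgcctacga
Snhg12: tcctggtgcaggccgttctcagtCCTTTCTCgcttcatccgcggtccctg
Snhg15: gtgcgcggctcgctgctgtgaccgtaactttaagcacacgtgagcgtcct
Snhg17: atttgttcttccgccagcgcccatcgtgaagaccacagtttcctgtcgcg

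The windows lie at chr1:161035141-161035190 (Gas5, plus strand), chr19:8723462-8723511 (Snhg1, plus), chr4:132353662-132353711 (Snhg3, minus), chr9:88522873-88522922 (Snhg5, minus), chr3:123508312-123508361 (Snhg8, minus), chr4:132308653-132308702 (Snhg12, plus), chr11:6528736-6528785 (Snhg15, minus) and chr2:158361498-158361547 (Snhg17, minus). A tract was found at 5 of the 10 starts held for these genes, in Gas5, Snhg3, Snhg5, Snhg8 and Snhg12. Of all 32851 RefSeq starts, 30.7% held a tract at the same place on the gene's strand and 34.9% on the opposite strand, so the motif is common by its letters alone. At its RefSeq start Snhg8 began with its tract at the first base, although gencode vM21 extends the gene upstream of that window, to base 123508404. In Snhg3 and Snhg5 the tract began at bases 3 and 10 from the start, so it was not at the very 5′ end. In Gas5 and Snhg12 the tract began 1 and 2 bases before the annotated start.

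In gencode vM21 on GRCm38, 9 of the 10 genes were found by symbol, all but Snhg4. Their spans ran from 853 bases for Snhg8 to 7881 bases for Snhg17. Reading from the first ATG, 70 of their 83 spliced transcripts (84.3%) had a junction more than 50 bases after the stop codon, against 72.3% of 14351 spliced transcripts of other non-coding genes. The median frame was 23 codons in the hosts and 17 in the other genes. Transcripts of a gene share exons, and Gas5 (25) and Snhg1 (18) gave many of the 83, so these pooled values lean on them. By gene, the median frame ran from 1 codon in Snhg8 to 57 in Snhg17, and that of Gas5 was 23. This arrangement, which is the one read by NMD, was found in 24 of 25 Gas5 transcripts, 15 of 18 of Snhg1, 9 of 10 of Snhg12 and 2 of 5 of Snhg3. On the opposite strand Snhg3 overlaps the non-coding gene Gm17300 by 1611 bases, Gas5 overlaps Zbtb37 by 428 and Snhg6 overlaps Mcmdc2 by 127, and since the sources differ on the kit, reads of such pairs may not have been told apart.

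The siRNA was checked first on its target. Rsl24d1 measured 7.22, 7.14 and 7.10 log2(TPM + 1) in the si-CTL ESCs and 5.23, 5.28 and 5.07 in the si-Rsl24d1 ESCs at day 0. With rescue at day 0 the si-Rsl24d1 libraries measured 6.70, 6.60 and 6.94, and the si-CTL libraries 7.31, 7.24 and 7.21. That difference of -0.50 passed the test (limma, adjusted p = 2.2e-05), so rescued si-Rsl24d1 ESCs still held less Rsl24d1 RNA than rescued controls. In si-CTL ESCs the difference with rescue was 0.10 and did not pass (limma, adjusted p = 0.29). At day 4 without rescue the level was 6.60, 6.67 and 6.61 in si-CTL cells and 6.50, 6.61 and 6.65 in si-Rsl24d1 cells, a difference of -0.04 that did not pass the test (limma, adjusted p = 0.66). With median of ratios scaling, which sets the median gene of each library level, it was -0.20 with an adjusted p of 0.0032. The day 4 comparisons thus concern cells whose Rsl24d1 RNA was at or little below the control level. The 8 pluripotency markers were present in every group and summed to 4955 to 5113 TPM in si-CTL ESCs and 3957 to 4005 in si-Rsl24d1 ESCs, where 7 of the 8 fell. At day 4 the sum was higher, 6853 to 7021 TPM in si-CTL cells, although 6 of the 8 fell with RA, Pou5f1 by 1.10 on the log2 scale, since Nanog (0.79) and Dppa5a (1.03) rose. The 6 RA response markers summed, in si-CTL cells, to 7.38 to 7.98 TPM at day 0 and 21.6 to 26.7 at day 4.

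A pair of libraries stood apart from their groups on more than 1 component of the data. In a principal component analysis, the second component gave replicate 1 of si-Rsl24d1 at day 4 without rescue a score of 0.03, while replicates 2 and 3 had -15.2 and -13.7 and the si-CTL libraries had 10.5 to 15.8. Replicate 3 of the rescued si-Rsl24d1 ESCs had -10.9, replicates 1 and 2 had -0.70 and -1.17, and the unrescued libraries had -34.0 to -31.3. Replicate 1 of the si-CTL ESCs without rescue had 7.05, and its replicates 2 and 3 had 14.44 and 16.25. On the third component, day 4 replicate 1 had -5.28, and its replicates 2 and 3 had 21.07 and 14.97. Rescued replicate 3 had -3.28 there, and its replicates 1 and 2 had -17.3 and -18.09. The si-CTL ESCs without rescue were spread on it too, with 31.48, 19.36 and 17.88. The mean correlation with the own group was 0.9848 for day 4 replicate 1, against 0.9872 and 0.9873 in its replicates 2 and 3. Its highest correlation, 0.9852, was with replicate 2 of the rescued si-Rsl24d1 cells at day 4. Every other library correlated best with a library of its own group. In the rescued si-Rsl24d1 ESCs it was 0.9901 for replicate 3 and 0.9902 for replicates 1 and 2, so it did not set replicate 3 apart. Results that rest on the pair are given with and without them. The files keep no read number, so the depth is unknown and counting intervals are not given. The numbers of genes above 0 were 23415 to 26428 per library.

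The hosts were abundant RNAs. Averaged over all 24 libraries, the TPM level was 678 for Gas5, 311 for Snhg1, 181 for Snhg6, 173 for Snhg3, 111 for Snhg12, 107 for Snhg8, 106 for Snhg4, 99.9 for Snhg5, 85.6 for Snhg15 and 44.4 for Snhg17. The mean log2(TPM + 1) of Gas5 lay at the 98.8th percentile of all genes tested and that of Snhg17 at the 81.4th. Snhg4, Snhg8 and Snhg12, neighbours in this order, had overlapping ranges over the libraries. Together the 10 genes summed to 1983 ± 63.4 TPM (SD, n = 3) in si-CTL ESCs and 1888 ± 27.7 in si-Rsl24d1 ESCs. At day 4 they summed to 1969 ± 30.7 TPM in si-CTL cells and 1775 ± 220 in si-Rsl24d1 cells. The SD of the last group came mainly from replicate 1, which held the highest sum of the group, 2029 TPM.

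**Figure D1:**
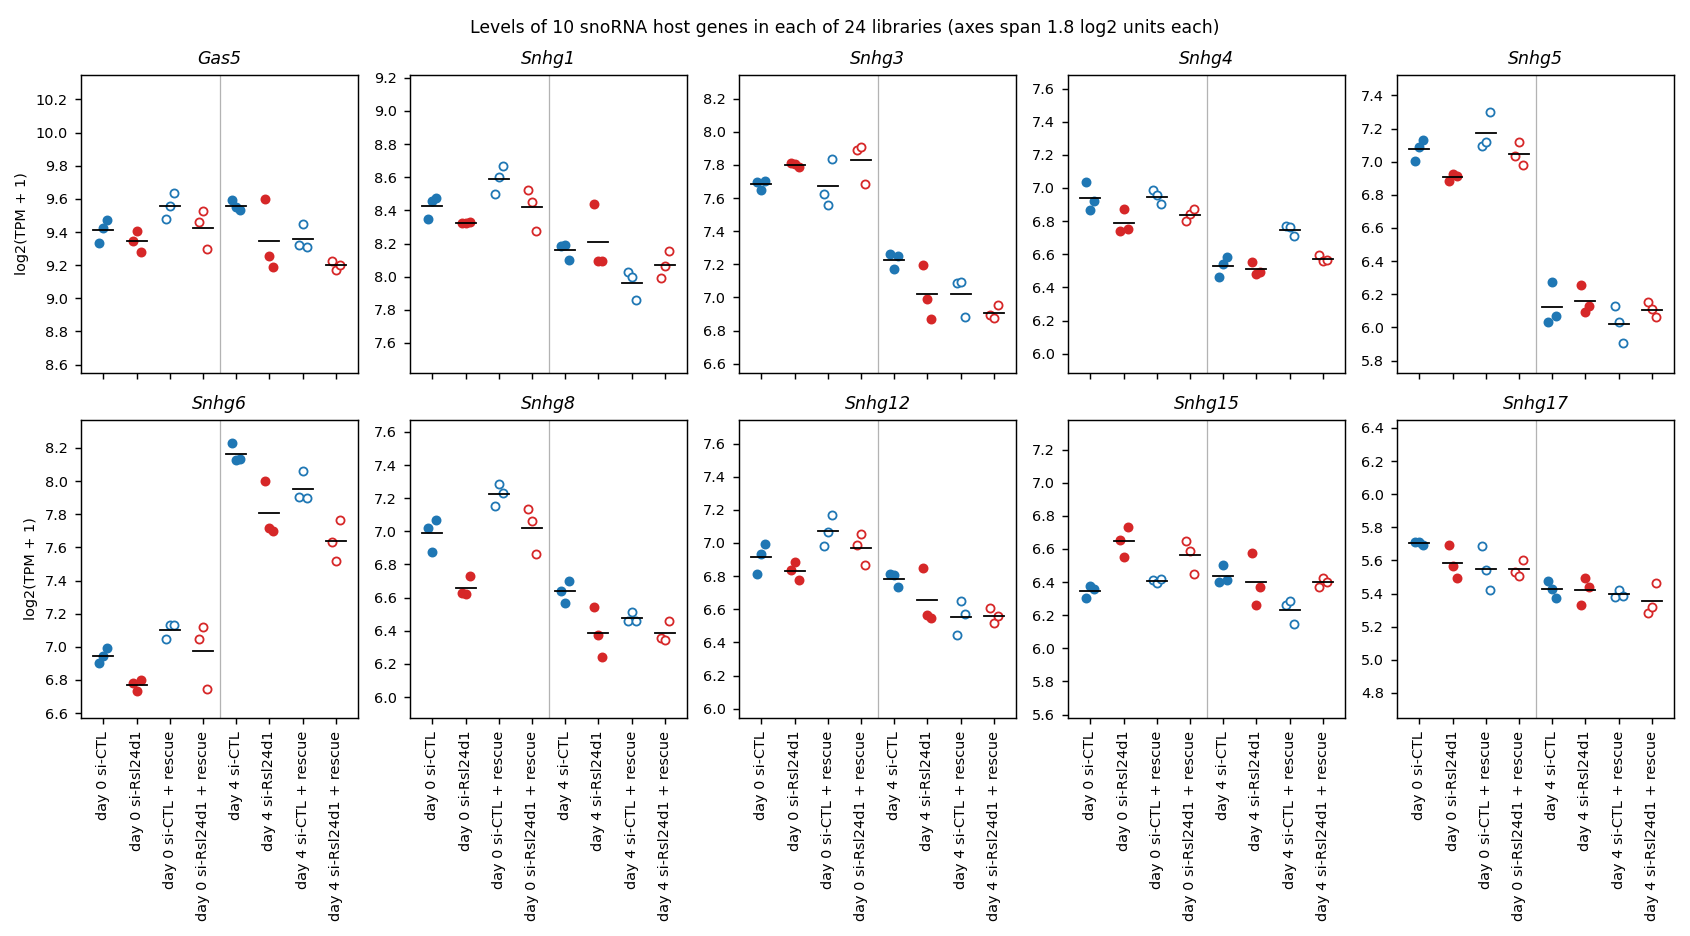
Levels of the 10 hosts, in log2(TPM + 1) on a separate vertical axis for each gene, in the 8 groups on the horizontal axis. Points are libraries (blue si-CTL, red si-Rsl24d1, open circles rescued), bars are group means, and the grey line divides day 0 from day 4. The large steps lie between the days, upwards for Snhg6 and downwards for Snhg5 and Snhg3.

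Depletion of RSL24D1 in ESCs moved the hosts little and in both directions. At an adjusted p below 0.01 (limma, Benjamini-Hochberg over all genes tested), 1 host rose (Snhg15), 2 fell (Snhg4 and Snhg8) and 7 did not pass the test. Of all genes tested, 14.3% rose and 16.1% fell in the same comparison, so the hosts' counts are close to the background. No host changed by more than 1.8-fold, and the members' median difference was -0.11 on the log2 scale against -0.01 over all genes. Pluripotency markers fell in the same libraries, as given above, and their part in the hosts' differences was not tested.

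Snhg8, which hosts the box H/ACA snoRNA Snora24, measured 7.02, 6.88 and 7.07 log2(TPM + 1) in si-CTL ESCs and 6.63, 6.62 and 6.73 in si-Rsl24d1 ESCs. All depleted libraries lay below all controls. The difference was -0.33 ± 0.07 (SE) on the log2 scale, with an adjusted p of 0.0012. Snhg4 measured 7.03, 6.87 and 6.92 in si-CTL ESCs and 6.74, 6.87 and 6.75 in si-Rsl24d1 ESCs. The groups overlapped by 1 library, the highest depleted one lying at the level of the lowest control, and the difference of -0.15 ± 0.04 had an adjusted p of 0.0082. This call rested on single libraries, since it was lost when either of 2 si-CTL libraries (replicates 1 and 3) or either of 2 si-Rsl24d1 libraries (replicates 1 and 3) was left out, with adjusted p values of 0.015 to 0.063.

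Snhg15, the host of Snora9, was the member that moved upwards. It measured 6.31, 6.38 and 6.36 log2(TPM + 1) in si-CTL ESCs and 6.65, 6.55 and 6.73 in si-Rsl24d1 ESCs, with no overlap. The difference was 0.30 ± 0.07 (SE), with an adjusted p of 9.9e-04. Snhg3, the host of Snora73a and Snora73b, which act in the cleavage of the ribosomal RNA precursor, had a difference of 0.12 with a 95% interval of -0.05 to 0.28. For the box C/D hosts the intervals were -0.23 to 0.10 for Gas5, -0.26 to 0.07 for Snhg1, -0.31 to -0.02 for Snhg5 and -0.35 to 0.01 for Snhg6. Those of Snhg12 and Snhg17 were -0.23 to 0.07 and -0.25 to 0.01. None of these 7 genes passed the test, and each upper bound was below the 0.848 that corresponds to 1.8-fold.

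The calls of Snhg8 and Snhg15 were kept when any single library of the comparison was left out. With median of ratios scaling in place of the deposited scale, no host passed limma's test in this comparison and 4 had an unadjusted p below 0.05, the adjusted p values being 0.010 for Snhg8, 0.012 for Snhg4 and 0.014 for Snhg15, with differences of -0.33, -0.15 and 0.30. That scaling called 15.8% of all genes higher and 17.7% lower.

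Rescue was used to ask whether the differences followed RSL24D1. Between the rescued si-Rsl24d1 and rescued si-CTL ESCs, 0 of 10 hosts passed the test in limma (8.1% of all genes rose and 5.64% fell), and 0 had an adjusted p below 0.05, while 4 had an unadjusted p below 0.05. Snhg8 differed by -0.20 (95% interval -0.36 to -0.05) and Snhg15 by 0.15 (0.02 to 0.29). The siRNA effect did not pass the test for a difference between rescued and unrescued ESCs for any host in limma (0.906% of all genes higher, 1.18% lower), and 0 had an unadjusted p below 0.05. For Snhg8 that difference was 0.12 ± 0.10 with an adjusted p of 0.61, and for Snhg15 it was -0.14 ± 0.09 with 0.47. A smaller effect on a host with rescue was thus not shown by this test. Without rescued si-Rsl24d1 replicate 3, the library that stood apart, the rescued siRNA difference was -0.12 for Snhg8 (adjusted p = 0.26) and 0.21 for Snhg15 (adjusted p = 0.036, the single host then below 0.05), and the difference between rescued and unrescued ESCs was 0.20 for Snhg8 and -0.09 for Snhg15, with 0 hosts past the test in either comparison.

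In the si-Rsl24d1 ESCs alone, Snhg8 was the host that rose with rescue (3.06% of all genes rose and 12.2% fell). It measured 7.14, 7.06 and 6.86 in the rescued libraries, all above the 6.63, 6.62 and 6.73 of the unrescued ones. The difference was 0.36 ± 0.07, with an adjusted p of 0.0014. Without rescued replicate 3, the library nearer the unrescued group, the difference was 0.44, and Snhg6 rose too, by 0.31 with an adjusted p of 0.0057. Without rescued replicate 1 the difference of Snhg8 was 0.30 and the call was lost, with an adjusted p of 0.014. In si-CTL ESCs, Snhg8 was 7.16, 7.29 and 7.23 with doxycycline, all above the 3 libraries without it, and the difference of 0.24 ± 0.07 did not pass the test (adjusted p = 0.031). No host passed it there, where 0% of all genes rose and 0.0122% fell, and 3 hosts had an unadjusted p below 0.05. The hosts' median difference there was 0.12, against -0.12 for all genes. With median of ratios scaling 0 hosts passed limma's test, and 8 had an unadjusted p below 0.05. The share of all genes at that unadjusted threshold was not computed, so these counts cannot be set against a background. The comparison of rescued with unrescued cells joins the induced open reading frame with the doxycycline and, per the labels, the vector, which cannot be told apart.

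**Figure D2:**
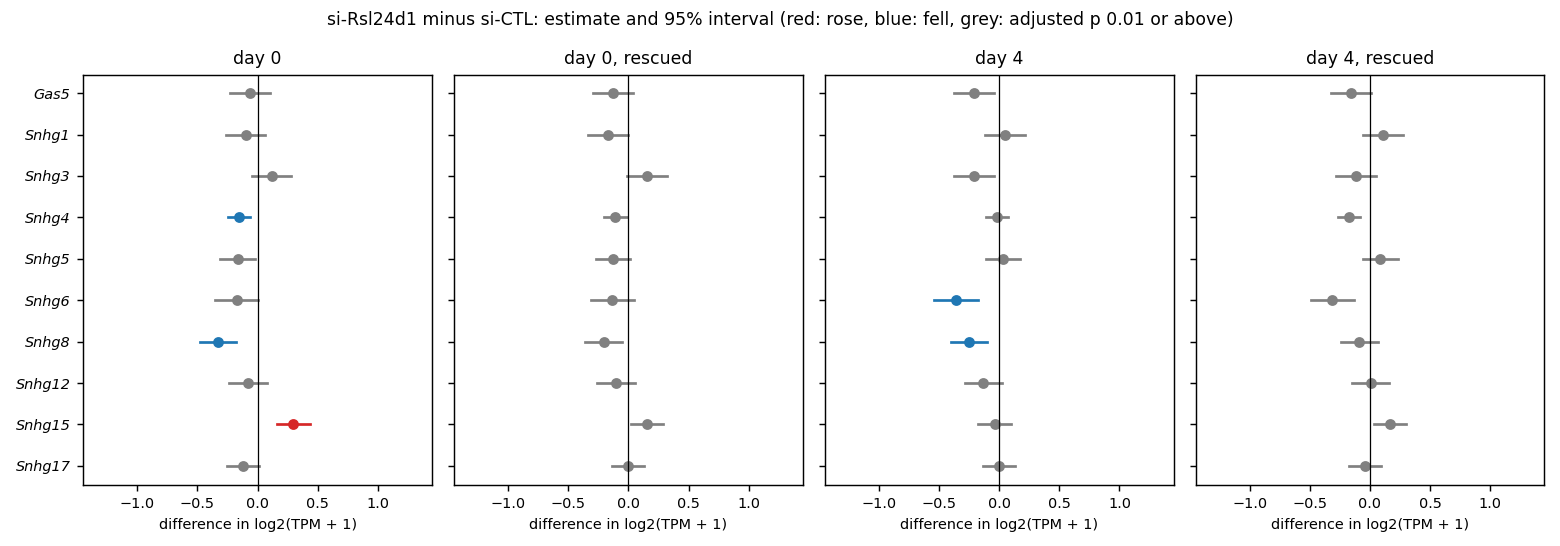
Differences between si-Rsl24d1 and si-CTL cells in log2(TPM + 1) on the horizontal axis, with 95% intervals, for the 10 hosts in 4 panels (day 0, day 0 rescued, day 4, day 4 rescued). Red marks a rise and blue a fall at an adjusted p below 0.01. At day 0 Snhg15 lies to the right and Snhg4 and Snhg8 to the left, and in both rescued panels all points are grey.

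RA treatment moved more of the hosts than the siRNA did at day 0, and it also moved more of all genes. In si-CTL cells without rescue, 6 hosts fell (Snhg1, Snhg3, Snhg4, Snhg5, Snhg8 and Snhg17), Snhg6 rose, and Gas5, Snhg12 and Snhg15 did not pass the test. In the same comparison 24.1% of all genes rose and 36.7% fell. Past 1.8-fold as well, Snhg6 rose and Snhg5 fell, against 6.77% and 8.24% of all genes. The hosts' median difference was -0.27 and that of all genes -0.10. The fall of Snhg1 was lost without si-CTL replicate 2 or 3 at day 0, or without replicate 1 or 3 at day 4, with adjusted p values of 0.011 to 0.025. Markers of other cell types moved with the day: the 6 fibroblast markers summed to 36.4 to 45.8 TPM in si-CTL ESCs and 90.8 to 99.1 at day 4, none of them at 0 in all libraries of either group, with 4 of the 5 tested rising and Thy1 falling. In the same groups the 7 primitive endoderm markers summed to 1.26 to 1.57 and 3.85 to 5.38 TPM, with the 3 tested rising and Ttr at 0 in all 3 libraries at day 0. In bulk RNA, fewer cells of a type and less RNA per cell cannot be told apart, and the part of cell mixture in the hosts' differences was not tested.

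Snhg6, the host of Snord87, measured 6.90, 6.94 and 6.99 log2(TPM + 1) in si-CTL ESCs and 8.23, 8.13 and 8.14 at day 4, which is 119 to 126 and 279 to 299 TPM. The difference was 1.22 ± 0.09 (SE), with an adjusted p of 1.9e-10. The day effect on Snhg6 was 1.03 in si-Rsl24d1 cells, 0.85 in rescued si-CTL cells and 0.67 in rescued si-Rsl24d1 cells, past the test in each.

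Snhg5, the host of Snord50a and Snord50b, went the other way. It measured 7.00, 7.09 and 7.13 in si-CTL ESCs and 6.03, 6.27 and 6.07 at day 4. The difference was -0.95 ± 0.07, with an adjusted p of 2.7e-10, and it was -0.75, -1.15 and -0.94 in the si-Rsl24d1, rescued si-CTL and rescued si-Rsl24d1 cells. Snhg3 measured 7.70, 7.65 and 7.71 at day 0 and 7.26, 7.17 and 7.25 at day 4, a difference of -0.46 ± 0.08 with an adjusted p of 3.6e-05. The spans of Snhg3 and of the coding gene Rcc1 overlap by 5592 bases on the same strand, so reads there may be split between them. In si-Rsl24d1 cells Snhg3 fell by 0.78 and in rescued si-Rsl24d1 cells by 0.92. Snhg4 fell in all 4 backgrounds, with differences of -0.41, -0.28, -0.20 and -0.26 in the same order as above, starting with si-CTL cells.

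Gas5, named for its accumulation in growth-arrested cells, measured 9.33, 9.43 and 9.47 log2(TPM + 1) in si-CTL ESCs and 9.59, 9.55 and 9.53 at day 4. The groups did not overlap, but the difference of 0.15 ± 0.08 did not pass the test (adjusted p = 0.10), and in rescued si-CTL cells the difference was -0.20. Snhg12, the host of Snora16a, Snora44, Snora61 and Snord99, had a difference of -0.13 without rescue (adjusted p = 0.13) and fell by 0.52 in rescued si-CTL cells (adjusted p = 3.6e-06).

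The counts of falling hosts were 5 in si-Rsl24d1 cells (26.4% of all genes fell and 29.4% rose), 6 in rescued si-CTL cells (22.4% and 36.8%) and 6 in rescued si-Rsl24d1 cells (25.8% and 32.4%). Snhg6 was the host that rose in each. In si-Rsl24d1 cells the count was 7 without day 4 replicate 1, which added Snhg1 and Snhg12 (24% of all genes fell and 30.8% rose), and it was 3 without replicate 3 of either day, which lost Snhg15 and Snhg8. In rescued si-Rsl24d1 cells the count was 8 without day 0 replicate 3, which added Gas5 and Snhg15 (23% of all genes fell and 32.8% rose). Snhg3, Snhg4, Snhg5 and Snhg8 fell in all 4 backgrounds on the deposited scale. TPM sum to a fixed total in each library, and the median of all genes shifted by -0.10 with the day in si-CTL cells, by 0.12 in rescued si-CTL cells, by 0.13 with the siRNA at day 4, by -0.11 and -0.12 with rescue at day 0 in depleted and control cells, and by 0.14 in the interaction of siRNA and day. With median of ratios scaling, which removes these shifts, Snhg6 rose and Snhg4 and Snhg5 fell in all 4 comparisons. In si-CTL cells without rescue Snhg4 and Snhg5 were the only falls under that scaling, beside 30.8% of all genes. There Snhg3 had a difference of -0.32 (adjusted p = 0.011), Snhg8 of -0.21, Snhg17 of -0.14, Snhg1 of -0.13 and Snhg12 of 0.01. The hosts that fell under that scaling numbered 4 in si-Rsl24d1 cells (29% of all genes fell). They numbered 8 in rescued si-CTL cells (30.1%) and 7 in rescued si-Rsl24d1 cells (30.3%), more than on the deposited scale.

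**Figure D3:**
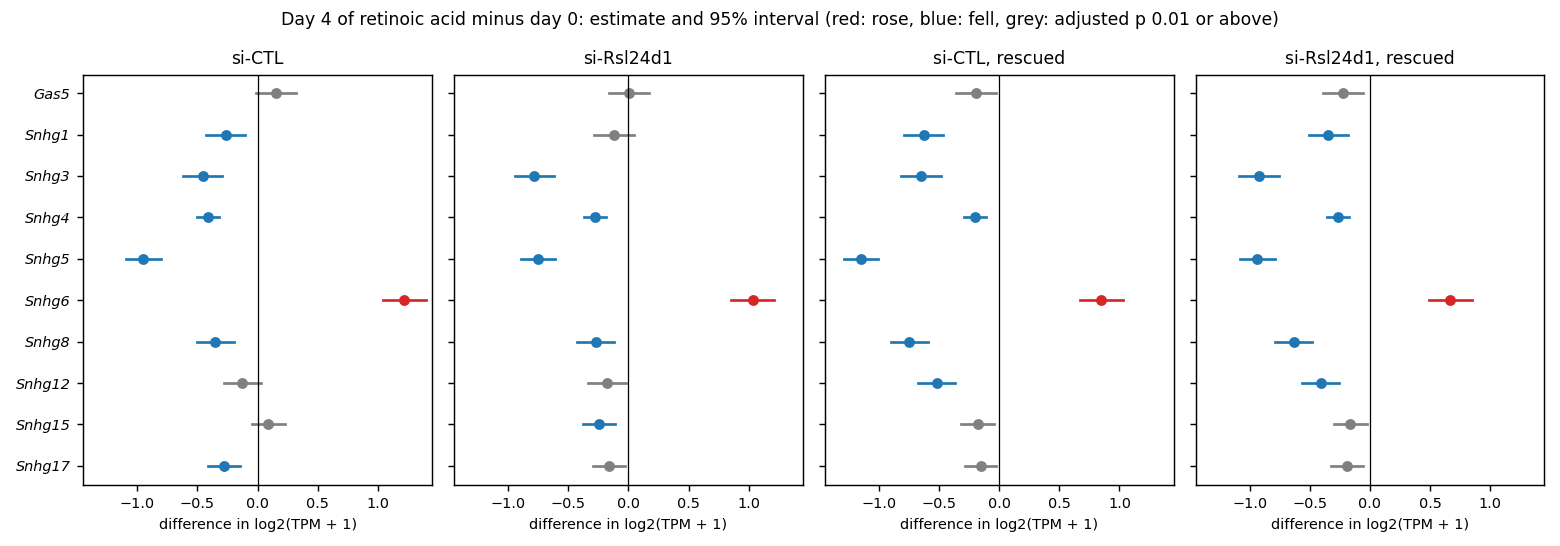
Differences between day 4 of RA and day 0 in log2(TPM + 1) on the horizontal axis, with 95% intervals, for the 10 hosts in 4 panels (si-CTL, si-Rsl24d1, and both with rescue). Red marks a rise and blue a fall at an adjusted p below 0.01. Snhg6 is to the right in every panel (1.22, 1.03, 0.85 and 0.67) and Snhg5 to the left.

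At day 4, cells that had received si-Rsl24d1 held less Snhg6 and Snhg8 than si-CTL cells, and no host rose (6.04% of all genes fell and 24.9% rose). Snhg6 measured 8.00, 7.72 and 7.70 log2(TPM + 1) against 8.23, 8.13 and 8.14, a difference of -0.36 ± 0.09 with an adjusted p of 0.0024. Snhg8 measured 6.55, 6.38 and 6.24 against 6.64, 6.57 and 6.70, a difference of -0.25 ± 0.07 with an adjusted p of 0.0094. The si-Rsl24d1 libraries lay below all controls for both genes. The hosts' median difference was -0.08, while the median of all genes was 0.13.

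Replicate 1 of the si-Rsl24d1 group was the highest of the 3 for both genes. It was the highest also for Gas5, at 9.60 against 9.25 and 9.19, for Snhg1, at 8.44 against 8.09 and 8.10, and for Snhg12, at 6.85 against 6.57 and 6.55. Without this library 5 hosts fell, namely Gas5 (-0.34), Snhg3 (-0.30), Snhg6 (-0.46), Snhg8 (-0.33) and Snhg12 (-0.23), with adjusted p values of 2.3e-04 to 0.0082. Of all genes 6.92% then fell and 33.3% rose. Without replicate 2 or 3 of the group, or without si-CTL replicate 1, no host passed the test (adjusted p of 0.014 to 0.019 for Snhg6 and 0.027 to 0.074 for Snhg8), and without si-CTL replicate 2 or 3 Snhg8 was lost (0.011 and 0.041). With median of ratios scaling and all libraries, 4 hosts fell (Snhg3, Snhg4, Snhg6 and Snhg8), beside 14.5% of all genes. Fibroblast markers summed to 172 to 239 TPM in these si-Rsl24d1 libraries and to 90.8 to 99.1 in the si-CTL ones, and primitive endoderm markers to 8.39 to 12.7 and 3.85 to 5.38 TPM, with none at 0 in all libraries of either group. Of the tested markers 3 of 5 and 3 of 3 rose. Their part in the result was not tested.

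**Figure D4:**
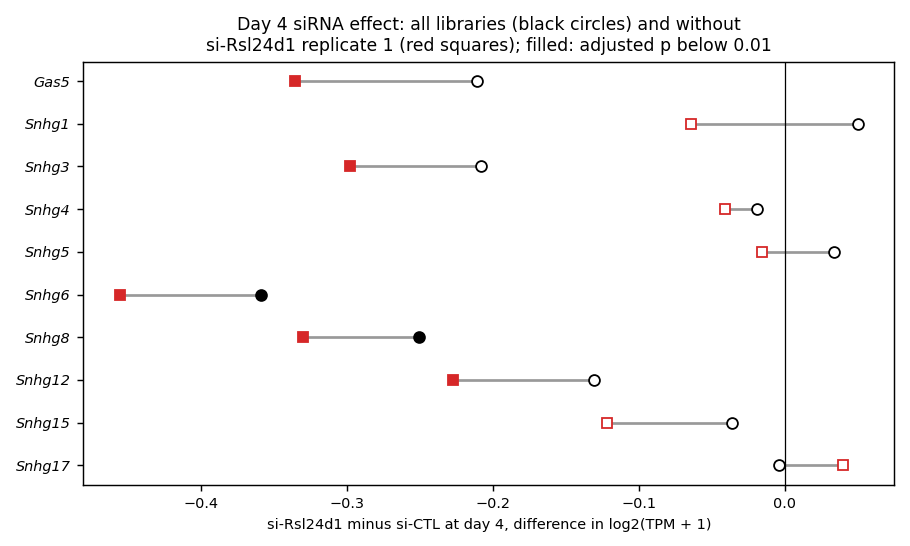
Differences at day 4 without rescue, si-Rsl24d1 minus si-CTL, in log2(TPM + 1) on the horizontal axis, for each host with all libraries (black circles) and without si-Rsl24d1 replicate 1 (red squares). Filled symbols passed an adjusted p below 0.01: 2 hosts with all libraries and 5 without that library.

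With rescue at day 4, no host passed the test between si-Rsl24d1 and si-CTL cells in limma (2.33% of all genes rose and 3.53% fell), while 2 had an adjusted and 3 an unadjusted p below 0.05. Snhg4 differed by -0.17 (95% interval -0.27 to -0.08, adjusted p = 0.012) and Snhg6 by -0.31 (-0.49 to -0.13, adjusted p = 0.020). Rescued and unrescued si-Rsl24d1 cells did not differ past the test for any host in limma (0.936% of all genes rose and 4.23% fell), and 0 had an unadjusted p below 0.05. Without si-Rsl24d1 replicate 1 of the unrescued group 0 hosts passed as well. In si-CTL cells at day 4, Snhg4 rose with rescue (8.85% of all genes rose and 1.34% fell), from 6.46, 6.54 and 6.58 to 6.77, 6.76 and 6.71 log2(TPM + 1). That difference of 0.22 ± 0.04 had an adjusted p of 0.0027, which became 0.011 to 0.021 when replicate 1 or 2 of the si-CTL libraries or replicate 1 of the rescued ones was left out, and the call was lost with median of ratios scaling. In the same comparison the median difference of the 10 hosts was -0.20 against 0.09 for all genes, and 8 had an unadjusted p below 0.05. The share of all genes at that unadjusted threshold was not computed, so the 8 cannot be set against a background. The 95% intervals of Gas5, Snhg1, Snhg3, Snhg6, Snhg8, Snhg12 and Snhg15 lay below 0, with differences of -0.23 to -0.16, none of which passed the test.

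The siRNA effect differed between the days for Snhg15 (22.1% of all genes had a higher and 8.83% a lower effect at day 4). It was 0.30 at day 0 and -0.04 at day 4, and the interaction was -0.33 ± 0.09 with an adjusted p of 0.0065. At day 4 Snhg15 measured 6.57, 6.26 and 6.37 in si-Rsl24d1 cells and 6.40, 6.50 and 6.41 in si-CTL cells, which overlap. The interaction of Snhg3 was -0.32 ± 0.11 (adjusted p = 0.024). Without day 4 si-Rsl24d1 replicate 1 the interactions were -0.42 for Snhg15 and -0.41 for Snhg3, both past the test, while that of Snhg15 was lost without si-CTL replicate 1 or 3 or si-Rsl24d1 replicate 1 or 3 of day 0, or without si-CTL replicate 2 or si-Rsl24d1 replicate 2 or 3 of day 4 (adjusted p = 0.011 to 0.023).

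The hosts did not share a single pattern over the groups. Over the 8 group means, the Pearson correlation between 2 hosts had a median of 0.66 over 45 pairs, was above 0.5 in 25 pairs and below -0.5 in 8. All 8 of the pairs below -0.5 held Snhg6, with -0.92 against Snhg5 as the lowest. The 8 means share libraries among genes and differ mostly by day. The genes with the profile most like the mean of the hosts were Snrpc, Snrpf (proteins of the spliceosome), Atp5g3, Cox7b (proteins of oxidative phosphorylation) and Rnd1, with correlations of 0.988 to 0.991 among 8071 genes searched.

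The snoRNAs themselves were mostly not measured. Within the 9 annotated hosts lie 33 entries that gencode types as snoRNA on the host's strand, with 2 symbols (Snord80 and Snora16a) entered 2 times each and 1 entry named as a microRNA, Mir5117. The table lists 30 of their symbols, and 3 passed the filter. These 3 lie in no annotated exon of their hosts. The listed entries inside an annotated exon were at 0 in all 24 libraries, except Snord22, which was above 0 in 1. Snora73b, at chr4:132352322-132352526 in an intron of Snhg3, measured 5.59, 5.60 and 5.64 log2(TPM + 1) in si-CTL ESCs and 4.12, 5.00 and 4.92 at day 4. It fell with the day by 0.93 ± 0.20 (adjusted p = 4.6e-04), beside the fall of its host, and it fell in the 3 other backgrounds too. Snhg3 and Rcc1 overlap by 5592 bases on the same strand, and the sources differ on the kit. Whether this value measures the mature snoRNA or other RNA of the locus was not tested. Its siRNA difference at day 0 was -0.15 (adjusted p = 0.60). Snora73a, its neighbour in Snhg3, had a day difference of -0.19 in si-CTL cells (adjusted p = 0.55) and fell by 0.97 in si-Rsl24d1 cells and by 1.30 in rescued si-CTL cells (adjusted p = 3.4e-04), while the difference was -0.01 in rescued si-Rsl24d1 cells (adjusted p = 0.98). Snord87 of Snhg6 was listed at 0 in 6 of the 24 libraries and had no difference past the test in any comparison.

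Other genes of the same routes were read from lists, whose choice had earlier results of these data in view. Their counts at day 0 stand beside 14.3% of all genes that rose and 16.1% that fell, and those with RA in si-CTL cells beside 24.1% and 36.7%. Of 10 tested further non-coding snoRNA hosts, 0 rose and 3 fell at day 0 with si-Rsl24d1, namely Zfas1 (-0.27), Snhg11 (-0.23) and Snhg16 (-0.17), with a list median of -0.10. Of 27 protein-coding snoRNA hosts, 5 rose, with Taf1d (0.30) and Rpsa (0.20) ahead, and 2 fell, Rpl5 (-0.23) and Rpl12 (-0.19), with a median of 0.06. Of 17 TOP mRNAs other than those of ribosomal proteins, 4 rose, among them the elongation factor Eef1a1 (0.21), and 5 fell, among them the histone chaperone Nap1l1 (-0.31).

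Of 18 coding genes known as NMD-sensitive, 5 rose and 7 fell at day 0. Cdkn1a, a cell cycle inhibitor, rose by 1.18, whereas the stress genes Chac1 and Atf4 fell by 2.91 and 0.80, and these are also targets of other pathways. The NMD-sensitive list thus moved in both directions, with a median of -0.08. Of 19 NMD factors, 2 rose, both in the UPF3 family (Upf3a by 0.31 and Upf3b by 0.28), and 3 fell, among them the exon junction proteins Magohb (-0.33) and Eif4a3 (-0.15). Of 16 snoRNP proteins, which package snoRNAs, 0 rose and 7 fell, among them the assembly ATPases Ruvbl1 (-0.41) and Ruvbl2 (-0.20) and the box H/ACA protein Nop10 (-0.38). At day 0 with median of ratios scaling, 1 of the further non-coding hosts fell, 1 coding host rose and 2 fell, 1 TOP mRNA rose and 3 fell, 2 NMD factors rose and 3 fell, 5 NMD-sensitive genes rose and 6 fell, and 5 snoRNP genes fell.

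With RA in si-CTL cells all 16 snoRNP genes fell, with a median of -0.45 and the largest differences in Naf1 (-1.33), Nolc1 (-0.85) and Gar1 (-0.81), and 15 of 19 NMD factors fell, among them Upf1 (-1.10). In the same comparison 12 of the 27 coding snoRNA hosts rose, with Eif4a2 (0.81) ahead, and 9 fell, with Dkc1 (-0.77) ahead. Of the 10 further non-coding hosts, Snhg20 (0.62) and Snhg11 (0.24) rose and Rian (-1.03) and Dancr (-0.33) fell. Of the 17 TOP mRNAs 4 rose and 7 fell, and of the 18 NMD-sensitive genes 3 rose and 12 fell. With median of ratios scaling 11 snoRNP genes and 14 NMD factors fell, none rose, 14 coding hosts rose and 5 fell, 3 further non-coding hosts rose and 1 fell, 4 NMD-sensitive genes rose and 8 fell, and the median of the TOP mRNAs turned from -0.07 to 0.07, with 7 rising and 5 falling.

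**Figure D5:**
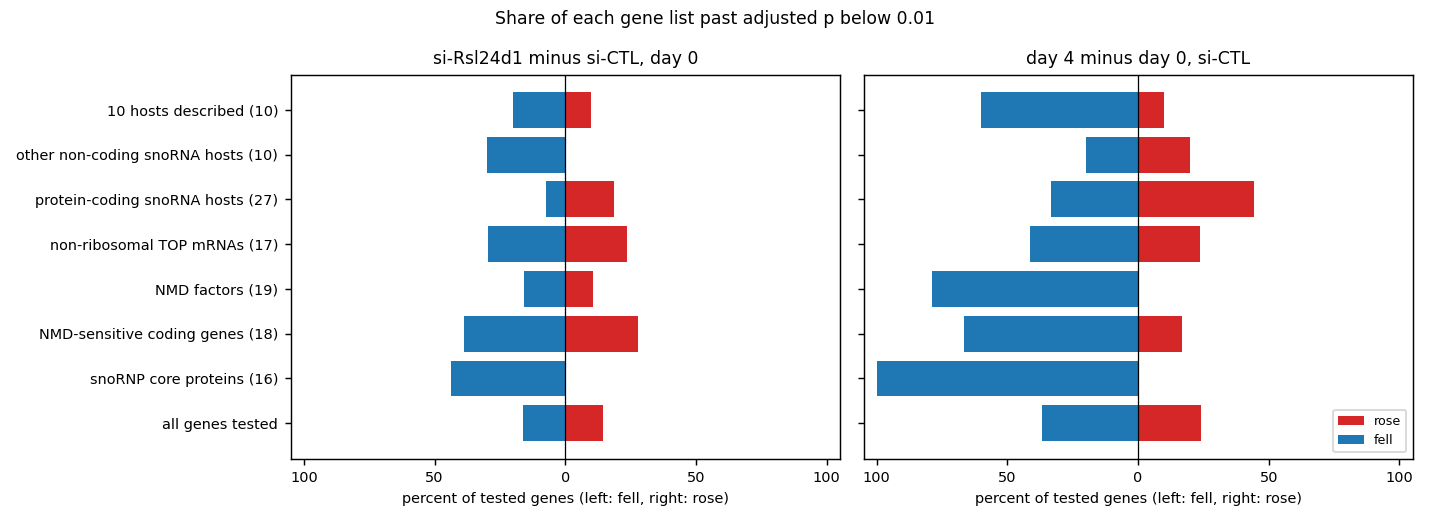
Percent of the tested genes of each list (number of genes in brackets) that rose (red, right) or fell (blue, left) at an adjusted p below 0.01, for si-Rsl24d1 against si-CTL at day 0 and for day 4 against day 0 in si-CTL cells. The lowest bar gives all 16447 genes tested. With RA the bar of the snoRNP proteins reaches 100% on the falling side, since all 16 fell.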

How the data were processed

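RNA-seq was measured in 24 libraries of CGR8 cells, with groups taken from the sample titles. By the methods of the study, Salmon and tximport gave the expression of each gene, and the authors deposited it as log2(TPM + 1) values. The labels' processing notes name STAR 2.7.8a, Salmon 1.4.0 and the build GRCh38, while the samples are mouse. Differences were tested two-sided by limma 3.58.1 (R 4.3.3), fitting the means of the 8 groups on all 24 libraries with a trended empirical Bayes variance and adjusting by Benjamini-Hochberg over 16447 genes. The study's DESeq2 test on counts was not run, since counts were not used here. The fit was tested on simulated data. An adjusted p below 0.01 was past the test, and 0.848 on the log2 scale is 1.8-fold. Fold changes are on the log2(TPM + 1) scale. The members and lists were chosen with earlier results of these data known. All hosts were named, and of each other list at most 3 genes per direction, by size of the difference among those past the test. Some genes of these lists are not reported here. Similar genes needed a mean of at least 2 and a range of group means of at least 0.5. Sequences and starts are RefSeq's on GRCm38.p6, and loci and transcripts are from gencode vM21 by symbol (52259 of 54242 symbols matched). Alternatives were 0.1 or 2 added to TPM, all genes above 0 kept, a stricter minimum mean of 1.5, median of ratios scaling, only the groups compared, a replicate block, other thresholds, and each library left out.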

Additional observations from a re-analysis of the deposited data

Results flagged for a closer look

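The effect of the siRNA on Snhg15 differed between the days without rescue. The difference between si-Rsl24d1 and si-CTL cells was 0.30 at day 0 and -0.04 at day 4, and the interaction of -0.33 on the log2 scale was past the test (limma, adjusted p = 0.0065). It is given here because the same contrast differed between 2 time points by a test of the difference itself. The call rested on single libraries, since leaving out any of several libraries of either day lost it (limma, adjusted p = 0.011 to 0.023). It was also lost without a filter and with only the groups compared. Of all genes tested, 22.1% had a higher and 8.83% a lower siRNA effect at day 4 than at day 0 by the same test.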

How the results depend on the processing

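With 0.1 or 2 added to TPM, or a filter at a mean of 1.5, no count of rising or falling hosts moved by more than 1.5 times, and no call of a host reversed under any alternative. With median of ratios scaling the hosts that fell numbered 0 for the siRNA at day 0 without rescue (17.7% of all genes fell), 4 for the siRNA at day 4 without rescue (14.5%) and 2 for the day in si-CTL cells (30.8%). Those that rose numbered 0 for the siRNA at day 0 (15.8% of all genes rose), 2 for rescue in depleted cells at day 0 (8.03%) and 0 for rescue in control cells at day 4 (5.8%). Without a filter, 1 host fell with the siRNA at day 0, 1 at day 4 and 0 by the interaction with day. With only the groups compared, 0 fell with the siRNA at day 4, 0 by the interaction, 3 with the day in depleted cells, and 0 rose with rescue in depleted cells at day 0 and 0 in control cells at day 4. With a replicate block, 1 host fell with the siRNA at day 0 and 1 at day 4. Libraries of 1 replicate number showed no shared deviation from their group means (mean correlation of deviations -0.02 over 84 pairs of libraries, against 0.01 for different numbers). This does not tell whether they were prepared in parallel. With 1.8-fold required as well, 0 rose or fell with the siRNA at day 0, 0 fell at day 4, 0 rose with rescue in either comparison with a call, 0 fell by the interaction, and with the day 1 fell in control cells, 1 in rescued control cells, 0 in depleted cells and 2 in rescued depleted cells, where 0 rose. At an adjusted p below 0.05, 1 host rose with rescue in control cells at day 0, 2 fell with it at day 4, 2 fell by the interaction, and 4 and 2 fell with the siRNA at day 4 without and with rescue. Shares of all genes were not computed without a filter, with only the groups compared, with a replicate block or at 0.05. Those counts show how the hosts' calls depend on the setting and cannot be set against a background.

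When single libraries were left out, there were 1 to 2 falling hosts for the siRNA at day 0 and 0 to 5 at day 4, 0 to 2 rising with rescue in depleted cells at day 0, 0 to 1 in control cells at day 4, 3 to 7 falling with the day in depleted cells and 0 to 2 by the interaction. Depth is unknown, so whether it limits the small differences at day 0 was not tested.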
